A study of Mus musculus with 8 samples.

Results

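The genes described here control whether a cell leaves the G1 phase and begins to copy its DNA. They are the D-type cyclins Ccnd1, Ccnd2 and Ccnd3, cyclin E1 (Ccne1), the kinases Cdk4 and Cdk6, the kinase inhibitors Cdkn1b (p27), Cdkn2c (p18) and Cdkn2d (p19), and the transcription factor Myc. They were chosen by name for their role, with earlier results of these data known. Their Ensembl identifiers were looked up among the 56748 gene identifiers of the count tables. All 10 were found, and 9 of them, all but Ccnd1, had enough counts to be among the 14942 genes that were tested.

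The counts came from poly-A RNA of resting bone marrow derived mast cells (BMMCs), which are mast cells grown from the marrow of C57BL/6 mice aged 6 to 8 weeks in medium with interleukin 3. Cells in the Mettl3-RNP group (genotype label Mettl3 KO, n = 4) were electroporated with Cas9 ribonucleoproteins (RNPs), in which guide RNAs direct the nuclease to cut Mettl3, the gene of the enzyme that writes N6-methyladenosine (m6A) on mRNA. Cells in the Pulsed group (genotype label Mettl3 WT, n = 4) were mock transfected and received no RNP. The Mettl3-RNP cultures were not sorted, so that they still held cells in which the gene had not been cut, and a Mettl3-RNP and a Pulsed library with the same replicate number formed a pair. The series text names 4 mice, from which it was inferred that the number marks the mouse, and nothing says how the cultures of different numbers differed.

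D-type cyclins are made in response to growth factors, bind the kinases Cdk4 and Cdk6, and start the phosphorylation of the retinoblastoma protein (Rb1), which holds back E2F transcription factors. Cyclin E with Cdk2 completes that phosphorylation and opens the way to S phase. The inhibitors of the INK4 family (Cdkn2c and Cdkn2d here) bind Cdk4 and Cdk6 directly, while Cdkn1b binds cyclin and kinase complexes, and Myc raises the transcription of many growth and cell cycle genes, partly through the DNA letters CACGTG. Mast cells in culture depend on growth factor signals to keep dividing, and the study asked whether loss of Mettl3 affects their proliferation and which transcripts change with it.

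The promoters of 7 of the 10 genes were present in the RefSeq table of the mouse genome (GRCm38.p6, another build than the GRCm39 of the counts), which gives 250 bases before and 50 after each start site. The letters CACGTG, which read the same on both strands, are those to which Myc binds with its partner Max, and for this reason they were searched. They occurred in the windows of Cdk4 (4 times), Cdk6 (once) and Cdkn2c (once, after the start site), which is 3 of 7. Among all 27025 genes of the promoter table, which were not limited to genes expressed in these cells, the share was 8.09%. The upstream window of Cdk4 (chr10:127063285-127063534, plus strand) and 30 bases of that of Cdk6 (chr5:3343661-3343690, plus strand) are given 5′ to 3′ with CACGTG in capitals, since these are the kinases that the D-type cyclins bind. A match of letters describes the sequence and is no measure of binding.
Cdk4: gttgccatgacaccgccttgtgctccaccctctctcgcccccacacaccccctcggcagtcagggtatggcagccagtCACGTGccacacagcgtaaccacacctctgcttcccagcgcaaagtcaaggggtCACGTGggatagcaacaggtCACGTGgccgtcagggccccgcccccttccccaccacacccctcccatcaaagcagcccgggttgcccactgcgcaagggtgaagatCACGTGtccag
Cdk6: gttctgcggcccCACGTGggtgaacccccg

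Total counts were 32643260 to 45324826 per library, which is ample for the 9 tested genes and thin for Ccnd1. Levels are given as CPM, counts scaled to 1000000 per library after TMM normalization, and a log2 fold change is Mettl3-RNP over Pulsed in an edgeR fit with the replicate number as a block. As a check of the labels, Mettl3, of whose exon bases 34.1% overlap Tox4 on the opposite strand, was at 12.3, 9.18, 4.88 and 9.21 CPM in Mettl3-RNP 1 to 4 and at 25.9, 24.5, 11.2 and 26.5 CPM in Pulsed 1 to 4, lower in 4 of 4 pairs (log2 fold change -1.30, SE 0.109, edgeR adjusted p 0.00543). Of 2007 olfactory and vomeronasal receptor genes, as named in the annotation (pseudogenes included), the summed level was 308 CPM in Mettl3-RNP 2 and 49.2 to 174 CPM in the other libraries. In bulk RNA fewer cells that express a gene and less of its RNA in each cell cannot be told apart, which holds for all values that follow.

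None of the 9 tested G1 genes passed the test between Mettl3-RNP and Pulsed cells. With edgeR 0 of 9 reached an adjusted p of 0.05, where 3.74% of all tested genes passed (2.35% higher and 1.39% lower in Mettl3-RNP cells), and 0 of 9 reached it together with a 1.5-fold difference, where 2.06% did. At an unadjusted p under 0.05 the count was 1 of 9, Ccnd2, against 22.5% of all genes. By DESeq2 1 of 9 passed an adjusted p of 0.05, again Ccnd2, against 9.09% of all genes, and by limma-voom 0 of 9 against 4.30%. The groups overlapped for each of the 10 genes, whereas they did not overlap for 3.23% of all tested genes. The adjusted p ranged from 0.119 for Ccnd2 to 0.837 for Myc.

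**Figure D1:**
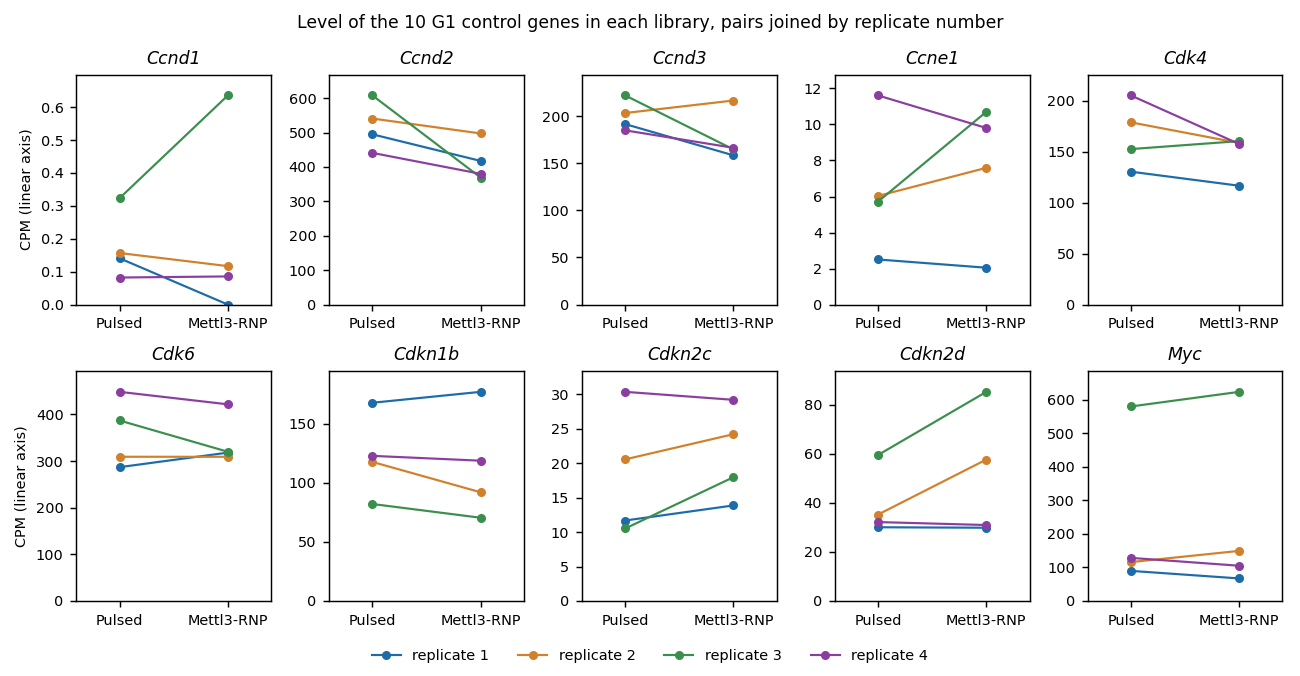
Level of each of the 10 genes in CPM (linear axis from 0, each panel with its own scale) in Pulsed and Mettl3-RNP libraries, with a line joining the libraries of 1 replicate number. Lines for Ccnd2 slope down in 4 of 4 pairs, whereas those for Myc, Cdkn1b and Ccne1 lie far apart from each other and slope in mixed directions.

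Of the D-type cyclins, Ccnd2 was the member with the lowest adjusted p. It lies on chr6:127102125-127129156 (minus strand, GRCm39) and was at 417, 497, 369 and 380 CPM in Mettl3-RNP 1 to 4 and at 495, 541, 608 and 441 CPM in Pulsed 1 to 4. Each Mettl3-RNP library was below the Pulsed library of its pair, yet Mettl3-RNP 2 was above Pulsed 1 and Pulsed 4, so that the groups overlapped. The means were 416 ± 58.0 and 521 ± 70.8 CPM (SD, n = 4). The log2 fold change was -0.32 (SE 0.104, 95% interval -0.57 to -0.08, edgeR adjusted p 0.119), and the pairs gave -0.25, -0.12, -0.72 and -0.21. Pair 3 differed the most, and without replicate 3 the log2 fold change was -0.20 (edgeR adjusted p 0.204). DESeq2 gave nearly the same size (-0.32, DESeq2 adjusted p 0.0334), limma-voom an adjusted p of 0.108, and over the 11 alternatives run the adjusted p lay between 0.0334 and the 0.999 of the fit without the block. By exact permutation of the signs of its 4 paired differences (two-sided) Ccnd2 had the smallest p that 4 pairs can give, which lies above 0.05.

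Ccnd3, which is common in blood cells, lies on chr17:47815767-47910624 (plus strand). It was at 158, 217, 165 and 166 CPM in Mettl3-RNP 1 to 4 and at 192, 203, 222 and 185 CPM in Pulsed 1 to 4. The Mettl3-RNP library was the lower of its pair in replicates 1, 3 and 4 and the higher in replicate 2. Means were 177 ± 27.0 and 201 ± 16.3 CPM (SD, n = 4), with a log2 fold change of -0.19 (SE 0.0925, 95% interval -0.41 to 0.02, edgeR adjusted p 0.270).

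Ccnd1 was close to absent. It lies on chr7:144483668-144493662 (minus strand), and 48.4% of its exon bases overlap LTO1 on the opposite strand, so that without a known strand setting its few counts may belong to either gene. It had 0, 5, 19 and 3 counts in Mettl3-RNP 1 to 4 and 5, 6, 13 and 3 counts in Pulsed 1 to 4, and was not tested. The 0 in Mettl3-RNP 1 allows up to 0.0807 CPM (3 counts), for counting error only, and the highest level was 0.635 CPM, in Mettl3-RNP 3. The libraries of replicate 3 were the highest of each group.

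Among the D-type cyclins the makeup was that of Ccnd2 and Ccnd3, and the share of each depended on the transcript length by which counts were divided. With the longest annotated transcript Ccnd2 made up 61.6%, 58.3%, 57.6% and 58.2% of summed D-type cyclin CPM per kb in Mettl3-RNP 1 to 4, and 61.1%, 61.8%, 62.5% and 59.2% in Pulsed 1 to 4. The share was the lower of the pair in replicates 2, 3 and 4 and the higher in replicate 1, and the groups overlapped (58.9% ± 1.82 and 61.2% ± 1.41, SD, n = 4). The longest Ccnd3 transcript, 3.858 kb, is annotated as a retained intron, and with the longest coding transcripts, of 2.528 kb for Ccnd3, the mean Ccnd2 share over 8 libraries was 49.6% instead of 60.0%. Ccnd1 held at most 0.163% of the sum with the longest transcripts and at most 0.232% with the union of exons.

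**Figure D2:**
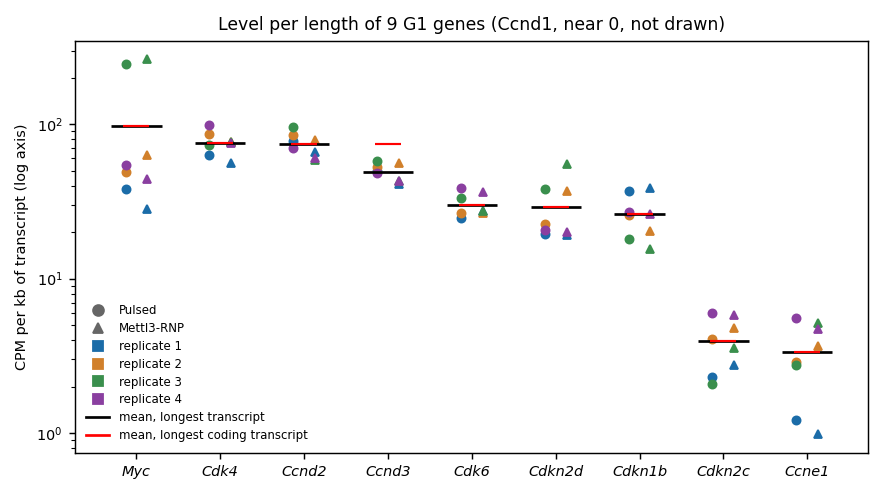
Level of 9 genes in CPM per kb of the longest transcript (log axis) in each of 8 libraries, with circles for Pulsed, triangles for Mettl3-RNP, colours for replicate numbers, and bars for the mean (black) and for the mean with the longest coding transcript (red). Myc spans 28.3 to 263 CPM per kb while Cdk4 and Ccnd2 lie within 56.1 to 98.7, and the red bar is apart from the black one for Ccnd3 alone.

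Compared per length, the levels followed an order with few clear steps. The mean over 8 libraries was 97.9 CPM per kb for Myc, 75.8 for Cdk4, 74.0 for Ccnd2, 48.9 for Ccnd3, 30.0 for Cdk6, 29.0 for Cdkn2d, 26.1 for Cdkn1b, 3.93 for Cdkn2c, 3.37 for Ccne1 and 0.0499 for Ccnd1. Myc came first by its mean alone and was above Cdk4 in only 2 of 8 libraries, those of replicate 3. The ranges over libraries did not overlap from Ccnd2 to Ccnd3, from Ccnd3 to Cdk6, from Cdkn1b to Cdkn2c and from Ccne1 to Ccnd1, and they overlapped for the other neighbours. With the longest coding transcripts Ccnd3 reached 74.6 CPM per kb, between Cdk4 and Ccnd2, and with the union of exons it was at 20.4, below Cdk6 (24.3), Cdkn1b (26.1) and Cdkn2d (27.1), so the place of Ccnd3 in this order rests on the length used. Summed over the D-type cyclins the level was 101 to 154 CPM per kb, and summed over their kinases Cdk4 and Cdk6 it was 83.4 to 137.

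Ccne1, which activates Cdk2 late in G1, lies on chr7:37797404-37808264 (minus strand). It was at 2.05, 7.59, 10.7 and 9.80 CPM in Mettl3-RNP 1 to 4 and at 2.50, 6.03, 5.72 and 11.6 CPM in Pulsed 1 to 4. Both libraries of replicate 1 were the lowest of their group by a wide margin, and the Mettl3-RNP library was the higher of its pair in replicates 2 and 3 only. Its log2 fold change was 0.20 (SE 0.207, edgeR adjusted p 0.640) with a 95% interval from -0.28 to 0.68, the widest of the 9, whose upper end is a 1.60-fold difference. Without replicate 3 the fitted value was -0.05.

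Of the kinases, Cdk4 lies on chr10:126895180-126903789 (plus strand) and was at 117, 159, 161 and 158 CPM in Mettl3-RNP 1 to 4 and at 130, 179, 153 and 205 CPM in Pulsed 1 to 4. It was the lower of the pair in Mettl3-RNP cells in replicates 1, 2 and 4, and both libraries of replicate 1 were the lowest of their group. Cdk4 had a log2 fold change of -0.16 (SE 0.0847, 95% interval -0.36 to 0.03, edgeR adjusted p 0.310). Of its exon bases 18.8% overlap Tspan31 on the opposite strand.

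Cdk6, the other partner of D-type cyclins and a gene with a long untranslated tail, lies on chr5:3391485-3581008 (plus strand). It was at 318, 309, 320 and 422 CPM in Mettl3-RNP 1 to 4 and at 287, 309, 387 and 448 CPM in Pulsed 1 to 4. The libraries of replicate 4 were the highest of each group, and within pairs the Mettl3-RNP library was higher in replicate 1 and lower in replicates 3 and 4. The log2 fold change was -0.05 (SE 0.0832, 95% interval -0.25 to 0.14, edgeR adjusted p 0.760), and without replicate 3 it was 0.02. Per length, Cdk4 made up 67.3% to 76.4% of the sum of both kinases in the 8 libraries.

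Among the inhibitors, Cdkn1b, which restrains cyclin E and Cdk2, lies on chr6:134897364-134902476 (plus strand). It was at 177, 92.0, 70.5 and 119 CPM in Mettl3-RNP 1 to 4 and at 168, 118, 82.1 and 123 CPM in Pulsed 1 to 4. Both groups had their highest level in replicate 1 and their lowest in replicate 3. Cdkn1b had a log2 fold change of -0.14 (SE 0.0858, 95% interval -0.33 to 0.06, edgeR adjusted p 0.403).

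Cdkn2c, an INK4 inhibitor, lies on chr4:109517957-109524386 (minus strand) and was at 13.9, 24.2, 18.0 and 29.2 CPM in Mettl3-RNP 1 to 4 and at 11.7, 20.5, 10.5 and 30.3 CPM in Pulsed 1 to 4. The Mettl3-RNP library was the higher of its pair in replicates 1, 2 and 3, and replicate 4 was the highest of each group. Its log2 fold change was 0.29 (SE 0.133, 95% interval -0.02 to 0.60, edgeR adjusted p 0.244).

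Cdkn2d, the other INK4 inhibitor, lies on chr9:21199700-21202727 (minus strand) and was at 29.8, 57.6, 85.2 and 30.9 CPM in Mettl3-RNP 1 to 4 and at 30.0, 35.2, 59.4 and 32.1 CPM in Pulsed 1 to 4. The pairs 2 and 3 had more in Mettl3-RNP cells and the pairs 1 and 4 differed little. The log2 fold change was 0.30 (SE 0.135, 95% interval -0.02 to 0.61, edgeR adjusted p 0.244). For both INK4 inhibitors the interval included 0 and a 1.5-fold rise.

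Myc lies on chr15:61857227-61862223 (plus strand). It was at 67.2, 149, 624 and 105 CPM in Mettl3-RNP 1 to 4 and at 89.7, 116, 580 and 129 CPM in Pulsed 1 to 4. Replicate 3 was far above the others in both groups, and the Mettl3-RNP library was the higher of its pair in replicates 2 and 3 and the lower in replicates 1 and 4. The log2 fold change was -0.06 (SE 0.128, 95% interval -0.35 to 0.24, edgeR adjusted p 0.837). Its sign depended on the libraries, with 0.03 without replicate 1 and 0.03 without replicate 4. Immediate early genes, which respond within minutes to stimulation, were also at their highest in replicate 3, where the summed level of 13 such genes was 25723 and 22369 CPM in Mettl3-RNP 3 and Pulsed 3 against 607 to 6714 CPM in the other 6 libraries. Outside replicate 3 the orders differed, since these genes were lowest in replicate 4 and Myc in replicate 1. The part of such a state in the Myc level was not tested.

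Most of the 9 tested G1 genes differed in level between replicate numbers. There are more replicate numbers than groups, so a larger share of variance between numbers than between groups is no result by itself. An F test of the replicate numbers in the same edgeR fit, added after the values had been seen, passed an adjusted p of 0.05 for 7 of the 9 genes, all but Ccnd2 and Ccnd3, against 53.9% of all tested genes. Of the variance of log2 CPM over 8 libraries, the median share that lay between replicate numbers was 85.1% for the 9 genes and 78.3% for all tested genes. It was 98.0% for Myc, 94.0% for Cdkn1b, 91.3% for Ccne1, and 27.4% for Ccnd2, the member with the lowest share. Mean levels of the pairs spanned 7.74-fold for Myc (edgeR adjusted p 7.33e-05), from replicate 1 to replicate 3. They spanned 4.63-fold for Ccne1 (edgeR adjusted p 0.00289), with the highest level in replicate 4, and 2.27-fold for Cdkn1b (edgeR adjusted p 0.000746).

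The order of the replicate numbers was not shared by the genes. Replicate 1 had the lowest mean of the 4 pairs for 7 of the 9 genes, Ccnd3, Ccne1, Cdk4, Cdk6, Cdkn2c, Cdkn2d and Myc, and the highest for Cdkn1b. Replicate 4 was the highest for Ccne1, Cdk4, Cdk6 and Cdkn2c, and replicate 3 for Myc and Cdkn2d. In the same libraries E2F target genes, which serve DNA replication, were the lowest in replicate 1 for 22 of 23 genes and the highest in replicate 4 for 21 of 23. Myc target genes were the lowest in replicate 1 for 26 of 26 and the highest in replicate 3 for 18 of 26. Mouse, culture and handling cannot be told apart in these differences.

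**Figure D3:**
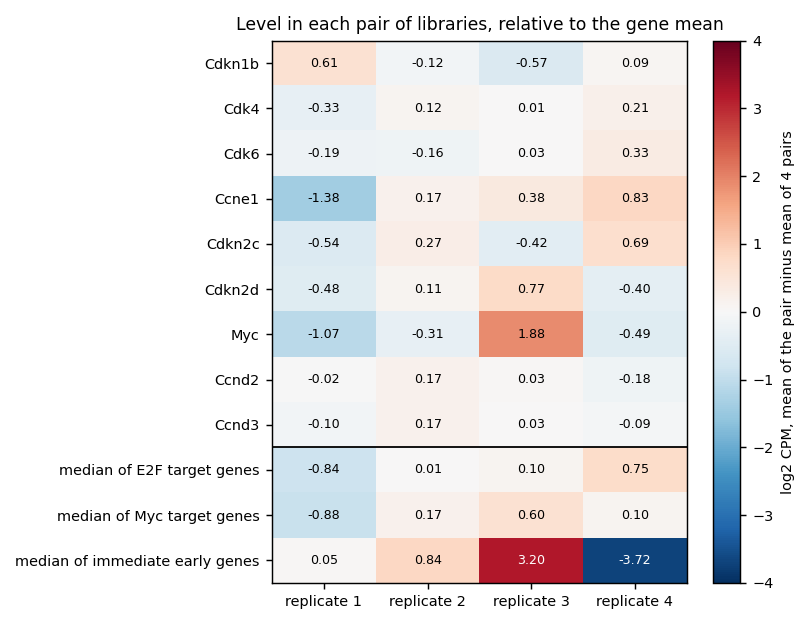
Mean log2 CPM of the 2 libraries of each replicate number minus the mean over the 4 numbers (colour and printed value), for 9 G1 genes and, below the line, for the median gene of 3 lists. Cdkn1b is high in replicate 1, where Ccne1 and the E2F and Myc target genes are low, and Myc is high in replicate 3 with the immediate early genes.

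Set side by side, the fitted differences between the groups stayed below 1.5-fold for each of the 9 genes. The fitted value was lower in Mettl3-RNP cells for 6 of 9 genes, against 50.2% of all tested genes, and the largest end of any of the 9 intervals was the 0.68 of Ccne1. The median log2 fold change was -0.06 for the 9 genes and -0.00 for all tested genes. Ccnd2 alone moved the same way in 4 of 4 pairs, that is 1 of 9, against 31.7% of all tested genes, and 16.0% were lower in 4 of 4 pairs as Ccnd2 was. Fitted values were below 0 for Ccnd2, Ccnd3, Cdk4, Cdk6 and the inhibitor Cdkn1b (-0.32 to -0.05). They were above 0 for the cyclin Ccne1 (0.20) and for the INK4 inhibitors. Cyclins and inhibitors were thus found on both sides, and none of these genes passed in edgeR.

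**Figure D4:**
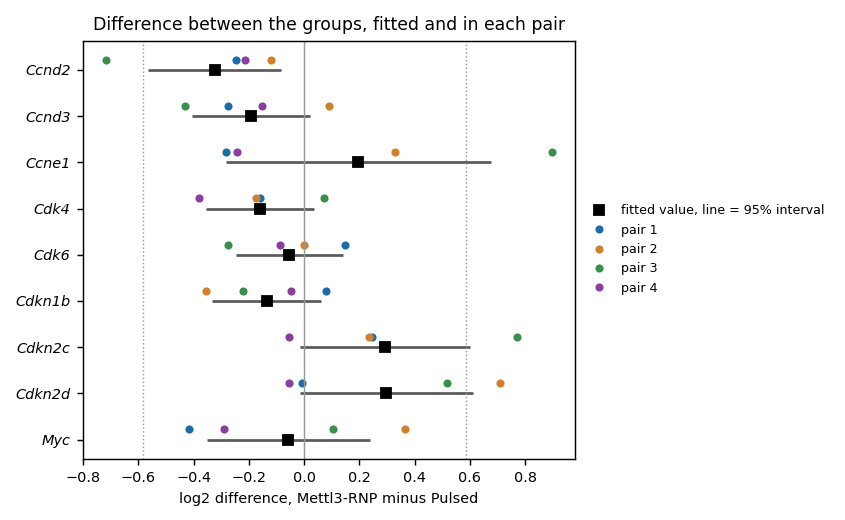
Fitted log2 difference, Mettl3-RNP minus Pulsed, for 9 G1 genes (black squares, with lines for the 95% interval) and the difference in each pair (coloured points), with dotted lines at a 1.5-fold difference. The interval lies apart from 0 for Ccnd2 only (-0.57 to -0.08), and before adjustment for the number of genes tested.

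In edgeR the other genes of the pathway passed the test about as often as genes in general. Over 6 lists 108 of 110 genes were tested, and 1 was higher and 3 were lower at an edgeR adjusted p of 0.05, against 2.35% and 1.39% of all tested genes. At an unadjusted p under 0.05 there were 29 of 108, against 22.5%. In the list of G1/S control genes 26 of 27 were tested, 1 rose and 1 fell, 15 of the fitted values were below 0, and the median log2 fold change was -0.03. E2f2, a transcription factor that activates S phase genes, rose from 7.04 ± 3.16 to 10.3 ± 4.48 CPM (SD, n = 4) and was higher in 4 of 4 pairs (log2 fold change 0.54, SE 0.11, edgeR adjusted p 0.0398). Ccnh, the cyclin of the kinase that activates other cyclin-dependent kinases, fell from 16.4 ± 2.90 to 12.0 ± 2.59 CPM (SD, n = 4) and was lower in 4 of 4 pairs (-0.45, SE 0.0968, edgeR adjusted p 0.0474). Of its exon bases 23.3% overlap Rasa1 on the opposite strand. The partners of Ccnh, Mnat1 (-0.46, edgeR adjusted p 0.0716) and Cdk7 (-0.01, edgeR adjusted p 0.959), were looked at after its value was seen and did not pass in edgeR, and Mnat1 passed in DESeq2.

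Myc target genes leaned to lower values while Myc itself did not pass. The list holds genes of ribosome production, metabolism and translation that Myc is known to raise. It was chosen with earlier results of these data known. Its genes were all lowest in replicate 1 and are not independent of each other, so the counts are a description. All 26 were tested, 0 rose and 2 fell in edgeR, 22 of 26 fitted values were below 0 against 50.2% of all tested genes, and 12 of 26 were lower with an unadjusted p under 0.05 against 10.7%. The median log2 fold change was -0.19, and the medians of the pairs were -0.25, -0.24, -0.09 and -0.20. Nop58, a core protein of the particles that modify ribosomal RNA, was at 32.4, 98.1, 211 and 85.8 CPM in Mettl3-RNP 1 to 4 and at 43.2, 130, 261 and 116 CPM in Pulsed 1 to 4 (-0.39, SE 0.0651, edgeR adjusted p 0.0269). Srm, which makes the polyamine spermidine, was at 28.7, 75.5, 86.3 and 69.1 CPM in Mettl3-RNP 1 to 4 and at 37.9, 102, 108 and 105 CPM in Pulsed 1 to 4 (-0.44, SE 0.0720, edgeR adjusted p 0.0242). Both were below their pair in 4 of 4 pairs, and in both groups replicate 1 was the lowest. DESeq2 called 7 of the 26 genes of the list, against 9.09% of all tested genes. They were Nop58, Srm, Ldha, Hspe1, Bop1 and Dkc1 as lower and Rrs1 as higher. Rrs1, a ribosome assembly factor, was higher in 4 of 4 pairs (0.37, edgeR adjusted p 0.0657), and it also passed with library size alone and with at least 10 counts in every library. CACGTG was present in the promoter windows of 5 of the 21 Myc target genes that had one (23.8%), against 8.09% of all genes with a window.

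In the Myc network, the partners and rivals of Myc, 12 of 13 genes were tested, 0 passed in edgeR, 1 had an unadjusted p under 0.05, and the median log2 fold change was -0.03. Mxd1, a competitor of Myc for Max named after its values were seen, was higher in 4 of 4 pairs (0.34, edgeR adjusted p 0.0709) and passed in DESeq2. Max, the partner with which Myc binds DNA, had 0.13 (edgeR adjusted p 0.323), and Mxd4, a competitor for Max, had -0.03 (edgeR adjusted p 0.841). Of 23 E2F target genes 0 passed in edgeR and 2 had an unadjusted p under 0.05, with a median of -0.01, and the medians of the pairs, -0.18, 0.04, 0.35 and -0.24, did not share a sign. Pcna, the sliding clamp of DNA polymerases, had -0.15 (edgeR adjusted p 0.452), and Mcm6, a subunit of the replicative helicase, had -0.10 (edgeR adjusted p 0.639). The highest value was that of Tk1, a thymidine kinase named after its values were seen, which was at 6.24, 27.9, 31.6 and 29.9 CPM in Mettl3-RNP 1 to 4 and at 6.02, 13.8, 11.6 and 21.4 CPM in Pulsed 1 to 4. It was higher in 4 of 4 pairs (0.77, SE 0.204, edgeR adjusted p 0.0765), and it passed in DESeq2, in limma-voom, with both other count filters and without replicate 1 or replicate 4.

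No antiproliferative or immediate early gene passed in the main edgeR fit, whereas Foxo1, Foxo3 and Jun passed in DESeq2. Fos, Jun, Egr1, Egr2 and Dusp1 passed in edgeR when every gene with at least 1 count was tested. Dusp1 also passed in edgeR without replicate 4. In the main fit Dusp1 had -0.48, whereas Fos, Jun, Egr1 and Egr2 had values above 0. Of 8 antiproliferative genes 1 had a fitted value below 0, against 50.2% of all tested genes, and 4 had an unadjusted p under 0.05, against 22.5%, with a median of 0.11 and values of 0.17 for Btg1 (edgeR adjusted p 0.319) and 0.30 for Foxo3 (edgeR adjusted p 0.0746), a transcription factor known to raise Cdkn1b. Of 13 immediate early genes 2 had a fitted value below 0 and 3 an unadjusted p under 0.05, against the same shares (median 0.23), with Egr1 at 0.83 (edgeR adjusted p 0.158) and Junb at 0.11 (edgeR adjusted p 0.668). Their levels ranged widely between replicate numbers, and Egr1 was at 26.3 CPM in Pulsed 4 and at 10694 CPM in Mettl3-RNP 3.

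The 4 calls among the pathway genes depended on the libraries and on the settings. None of the 4 passed in edgeR without the replicate block. With the block, Ccnh did not pass with DESeq2 size factors, with library size alone or when every gene with at least 1 count was tested, and Nop58 did not pass in the last of these. E2f2 and Ccnh did not pass in any fit that left out 1 replicate, and Nop58 and Srm passed without replicate 3 and did not pass without replicate 1, 2 or 4. The count of pathway genes past the threshold was 0 without replicate 2 and at most 3 in the fits that left out another replicate. By DESeq2 the count was 15 of 108, a higher share than the 9.09% of all tested genes, with E2f2, Ccnh, Nop58 and Srm among them. By limma-voom it was 7 of 108, against 4.30%.

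**Figure D5:**
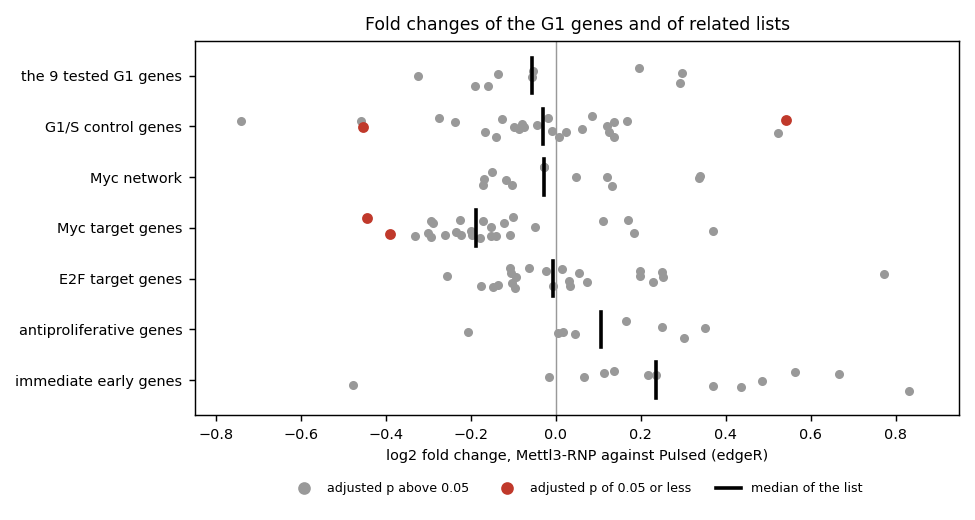
Fitted log2 fold change (horizontal axis) of each tested gene in the G1 set and 6 related lists, with red points past an adjusted p of 0.05 and a black bar at the median of each list. The 4 red points are E2f2 and Ccnh among G1/S control genes and Nop58 and Srm among Myc target genes, and the medians run from -0.19 for Myc target genes to 0.23 for immediate early genes.

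The enzyme encoded by Mettl3 prefers adenosines in a short sequence context, of which GGACT is the common form, and the transcripts of the G1 genes differed in how many copies they carry on their own strand. The longest Myc transcript held 6 copies, 2.53 per kb, a density above that of 97.7% of 12056 protein-coding genes tested. The Cdk4 transcript held 0 copies, whereas 96.4% of these genes had at least 1. The other 8 genes had 0.64 to 1.44 GGACT per kb, around the median of 1.03. Myc and Cdk4, at the ends of the GGACT range, had log2 fold changes of -0.06 and -0.16 with overlapping intervals. These letters count possible sites, and methylation was not measured in these libraries.

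The genes with the most similar profiles were found by the root mean square difference of centred log2 CPM over the 8 libraries, among 8497 genes that averaged 10 CPM or more (8498 for Ccne1, itself below that level). Shcbp1 (0.176) was among the nearest to Ccne1, and the nearest to Cdkn2c were Knstrn (0.124) and Gtse1 and to Cdkn1b Spop (0.0573) and Sesn1 (0.0694). Ccnd3 was the 2nd nearest of Ccnd2 (0.108), after Hdac4 (0.0936), and Lmna (0.0690) and Hdac4 (0.0712) were the nearest of Ccnd3. For Cdk4 they were Acsl5 (0.0493) and Qdpr (0.0503), for Cdk6 Ripor1 (0.109) and Spidr (0.112), for Cdkn2d Glrx5 (0.128) and Pdp1 (0.138), and for Myc Nmd3 (0.200) and Bend3 (0.248). Likeness over 8 libraries from 4 pairs is a description.

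Markers of cell types were set beside these results. Mast cell markers summed to 32271 to 44435 CPM in Mettl3-RNP and 36821 to 52314 CPM in Pulsed libraries, with the growth factor receptor Kit at 3074 to 5042 CPM, and 1 of 8 tested genes, the granule protease Cpa3, fell (log2 fold change -0.37, edgeR adjusted p 0.0328), where 1.39% of all tested genes fell. Of 4 basophil markers 2 fell, Ifitm1 (-0.60, edgeR adjusted p 0.0471) and Il18rap (-0.79, edgeR adjusted p 0.0324), and the sum of the 4 did not overlap between groups, with 1039 to 1641 against 1744 to 2707 CPM (3.23% of all tested genes did not overlap). Most of that sum was Ifitm1, and the defining basophil protease Mcpt8 was at most 4.03 CPM. Macrophage markers summed to 7.43 to 35.9 CPM in Mettl3-RNP and 9.48 to 15.3 CPM in Pulsed libraries, and 1 of 3 tested, Adgre1, fell (-1.13, edgeR adjusted p 0.0435) from a highest level of 3.18 CPM. The highest sums, those of Mettl3-RNP 2 and Mettl3-RNP 4, were mostly Cd68, a lysosomal protein named after its values were seen, which was at 3.71, 23.8, 11.1 and 28.3 CPM in Mettl3-RNP 1 to 4 and at 5.01, 3.16, 6.56 and 3.26 CPM in Pulsed 1 to 4, higher in 3 of 4 pairs (1.63, SE 0.569, edgeR adjusted p 0.142). Of 7 neutrophil markers 4 were at 0 in every library, with Mpo and Ly6g at most 0.201 CPM. Erythroid markers, Klf1 among them, summed to at most 1.86 CPM, T cell markers (Cd4, Cd3e) to at most 2.59 CPM and B cell markers (Pax5, Cd79a) to at most 0.397 CPM. The part of these lists in the levels of the G1 genes was not tested.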

How the data were processed

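BMMCs were cultured, transfected and sequenced by the authors (poly-A enrichment, paired reads), aligned to GRCm39 with HISAT2 2.2.1 after FastQC 0.11.9, and counted per Ensembl gene with featureCounts 2.0.1, tools which the submitters' processing notes name. The authors deposited 1 table of raw, unnormalized read counts for each library. The methods describe a batch correction, of which nothing is visible in the deposited counts, and the strand setting is not given in the sources used here.

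Symbols and positions came from GENCODE mouse release 39, which named 98.7% of the identifiers. Genes were kept by filterByExpr (minimum count 10), scaled by TMM and tested with glmQLFit and glmQLFTest of edgeR 4.0.16 (R 4.3.3) blocked on replicate number, with Benjamini-Hochberg adjustment over all 14942 genes. A gene passed at an adjusted p of 0.05, also with a fold change of 1.5. CPM used TMM library sizes and log2 CPM a prior count of 2. Standard errors were derived from the test statistic, and p-values measure the spread between these 4 pairs. On counts simulated for this comparison with 14942 genes, 51% of 100 genes changed 2-fold and 9% of 100 genes changed 1.5-fold were recovered, and 6.25% of the calls were false.

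Replicate numbers pair the samples, since libraries that share a number deviated together from the mean of their group, with correlations of 0.825, 0.489, 0.879 and 0.765 (11985 genes averaging 1 CPM or more), against at most 0.183 for different numbers.

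Named are the 10 members, Mettl3, list genes with an adjusted p of 0.05 or less, or otherwise the 2 with the highest mean CPM in a list, and the 2 genes with the nearest profiles. Mnat1, Cdk7, Kit, Mcpt8, Tk1, Mxd1, Cd68 and genes that passed only under an alternative were named after their values were seen. The members and lists were chosen with earlier results of these data known. Alternatives were DESeq2 1.42.0, limma-voom (limma 3.58.1), no block, 2 other scalings, 2 other filters, each replicate left out, and other transcript lengths. The replicate F test, the promoter letters and the coding transcript lengths were added after seeing the data. Promoter sequences are those of RefSeq (GRCm38.p6), and Ccnd1, Ccnd2 and Myc were not in that table. The results of 2 genes that this rule names are not reported here.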

Additional observations from a re-analysis of the deposited data

Results flagged for a closer look

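In groups of 4 libraries, values were compared with Dixon's 95% limit for a sample that stands apart, over 22 groups (the G1 genes and Mettl3 in each group), where chance gives about 1.1. Myc in Mettl3-RNP 3 was at 624 CPM against 67.2 to 149 CPM in the other Mettl3-RNP libraries. Myc in Pulsed 3 was at 580 CPM against 89.7 to 129 CPM in the other Pulsed libraries. Mettl3 in Pulsed 3 was at 11.2 CPM, below the 24.5 to 26.5 CPM of the other Pulsed libraries. These 3 values belong to replicate 3, whose libraries were also the highest for immediate early genes.

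Within Mettl3-RNP libraries, Ccnd3 in replicate 2 was at 216.7 CPM against 158 to 166 CPM in the others, and in that library receptor genes of the nose and vomeronasal organ were also the highest. Cdk4 in Mettl3-RNP 1 was at 117 CPM, below the 158 to 161 CPM of the others. Cdk6 in Mettl3-RNP 4 was at 422 CPM against 309 to 320 CPM in the others.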

How the results depend on the processing

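The count of 0 G1 genes at an adjusted p of 0.05 was kept under every alternative run except DESeq2, which gave 1 (Ccnd2, log2 fold change -0.32, adjusted p 0.0334). Over all genes, 559 at an adjusted p of 0.05, 308 of them past a 1.5-fold change and 4 of the pathway genes became 1358, 503 and 15 with DESeq2, 993, 579 and 8 when every gene with at least 1 count was tested, and 0, 0 and 0 in edgeR without the replicate block, where 579 genes had an unadjusted p under 0.05. With at least 10 counts in every library 959 genes and 10 pathway genes passed, and by limma-voom 7 pathway genes did. A fit with no replicate block gave Myc a log2 fold change of 0.048 and Mettl3 one of -1.31 (adjusted p 0.744, the highest of its 11 alternatives, the lowest being 1.37e-15). Leaving out 1 replicate at a time gave 26 to 383 genes, 26 to 331 past the fold limit and 0 to 3 pathway genes, the lowest of each without replicate 2. It gave log2 fold changes of -0.21 to 0.031 for Myc (0.026 without replicate 1), -0.055 to 0.36 for Ccne1 and -0.16 to 0.017 for Cdk6, while the other 6 tested G1 genes kept their sign, with -0.40 to -0.20 for Ccnd2, -0.29 to -0.11 for Ccnd3, -0.24 to -0.077 for Cdk4, -0.24 to -0.070 for Cdkn1b, 0.14 to 0.42 for Cdkn2c and 0.15 to 0.42 for Cdkn2d. Dividing by the union of the exons kept 4 of the 10 ranks in the order of levels and gave Ccnd2 70.8% of the D-type cyclins, and dividing by the longest coding transcripts kept 8 ranks and gave 49.6%, instead of 60.0%. The cause of these shifts was not tested, other than the lengths themselves for the last. In the simulated data, which were not limited to G1 genes, few genes with a 1.5-fold change were recovered. In the main edgeR fit the intervals of Ccne1, Cdkn2c and Cdkn2d included a 1.5-fold rise, so such a change could be missed there. The intervals of Ccnd2, Ccnd3, Cdk4, Cdk6, Cdkn1b and Myc stayed within 1.5-fold in both directions. For Ccnd2 the margin was narrow, with a lower end of -0.57 in log2.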
